A study of Mus musculus with 12 samples.

Results

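The Gadd45 family has 3 members in the mouse, Gadd45a, Gadd45b and Gadd45g, and all 3 were found by their symbols among the 21936 genes measured in fibrotic and recovering liver. The family was chosen by the high fold change of Gadd45g in exosome-treated livers relative to the regression group, with no cut on its rank, and its paralogs were added for comparison. Values of that contrast are therefore given for the 3 genes as a description with no test. All livers came from male C57BL/6 mice that were 6 weeks old on arrival and received carbon tetrachloride (CCl4), a toxin of hepatocytes that leads to fibrosis, injected into the peritoneum at 1 mL/kg, 2 times a week over 8 weeks. The liver fibrosis group (LFG) was sacrificed then, without recovery. The regression group (REG) next received 200 µL of phosphate-buffered saline through the tail vein, 2 times a week over 4 weeks, and on the same schedule hADMSCs-Exo mice were given 200 µL that carried 250 µg of exosome protein. hADMSCs-Exo are small vesicles shed by cultured human adipose mesenchymal stem cells. Each group had 3 RNA-seq libraries, and the hADMSCs group was not analysed here. LFG is earlier than the other groups by those weeks, so time since the last CCl4 and treatment cannot be told apart in comparisons with LFG.

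Gadd45 proteins are small acidic proteins without enzymatic activity that work by binding others. They bind the replication clamp PCNA, the cell cycle inhibitor p21 (Cdkn1a) and the CDK1 and cyclin B1 complex, release the kinase MEKK4 (Map3k4) to start p38 and JNK signaling, and take part in removal of DNA methylation by repair. Their genes are known for fast induction by DNA damage, cytokines and metabolic stress, and in liver Gadd45b is known as an early gene of regeneration that also responds to fasting.

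The genes lie on different chromosomes, and their upstream sequence was set side by side because the members differed in level and in how they moved. Gadd45g (ENSMUSG00000021453) is at chr13:51846678-51848468 on the plus strand of GRCm38, Gadd45b (ENSMUSG00000015312) at chr10:80930073-80932204 on the plus strand, and Gadd45a (ENSMUSG00000036390) at chr6:67035096-67037457 on the minus strand. The first listed transcript of each has 4 exons, with 477, 480 and 495 coding bases. No window of 50 bases of these transcripts was found in a transcript of another gene, read in the same direction. The gene E230016M11Rik overlaps Gadd45a on the opposite strand and was not among the genes counted, so reads from their shared stretch cannot be told apart if strand was not used. The sequences below are the bases before the RefSeq start of each gene (GRCm38.p6, 5′ to 3′ in the gene's direction), without any base that GENCODE puts inside the gene. They cover chr13:51846425-51846674 for Gadd45g, chr10:80929841-80930072 for Gadd45b and chr6:67037458-67037657 for Gadd45a. Capitals mark matches on either strand to the TATA box TATAAA, to the motif CCAAT, to the E-box CACGTG and to the octamer ATTTGCAT.
Gadd45g: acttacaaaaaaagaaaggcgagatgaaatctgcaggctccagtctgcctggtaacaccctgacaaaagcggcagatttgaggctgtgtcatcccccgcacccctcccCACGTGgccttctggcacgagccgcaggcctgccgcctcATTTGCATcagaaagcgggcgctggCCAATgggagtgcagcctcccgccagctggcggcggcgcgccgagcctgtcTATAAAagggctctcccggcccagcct
Gadd45b: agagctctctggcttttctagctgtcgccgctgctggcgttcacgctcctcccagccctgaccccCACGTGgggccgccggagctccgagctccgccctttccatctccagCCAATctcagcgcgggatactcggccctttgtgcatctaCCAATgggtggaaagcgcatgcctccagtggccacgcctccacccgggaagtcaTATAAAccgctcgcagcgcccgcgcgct
Gadd45a: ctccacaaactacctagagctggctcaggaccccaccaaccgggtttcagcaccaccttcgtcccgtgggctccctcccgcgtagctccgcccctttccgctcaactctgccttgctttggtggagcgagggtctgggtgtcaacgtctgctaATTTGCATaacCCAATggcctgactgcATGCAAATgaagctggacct

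The Gadd45g and Gadd45b sequences each held TATAAA close to the start and the E-box further upstream, and the Gadd45a sequence held neither. TATAAA began 27 bases before the start of Gadd45g and 46 bases before that of Gadd45b, and the E-box 142 and 185 bases before. Among 32851 RefSeq windows of 250 bases before a start, 12.4% held TATAAA and 6.02% held CACGTG on either strand. CCAAT was present in all 3 genes, with 2 matches in Gadd45b, and in 33.8% of the windows. The octamer was present 1 time in Gadd45g and 2 times, in opposite directions, in Gadd45a, and in 1.60% of the windows. GGGCGG occurred in Gadd45b and Gadd45a and in 32.7% of the windows. TTGCNNAA, a sequence of the kind bound by C/EBP factors, occurred only in Gadd45a of the 3, where it overlapped an octamer, and in 9.56% of the windows. TGACGTCA, TGANTCA, TTCNNNGAA and GTAAACA had no match in these 3 windows. These are letter matches and not measured binding sites.

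Total counts per library ranged from 13837445 to 19840917. The 3 members passed the filter on low counts in every comparison. LFG 3 stood apart from its own group: its log2 CPM correlated across genes at 0.834 to 0.874 with LFG 1 and LFG 2, which correlated at 0.965 with each other. With libraries of the other groups its values were 0.896 to 0.940, beside 0.903 to 0.921 for LFG 1 and 0.926 to 0.948 for LFG 2. LFG 3 had 13924 genes with a count against 14539 to 15248 elsewhere. Results against LFG are also given without it where that changes a call or moves a count by more than 1.5 times. The labelled tissue was checked by 11 hepatocyte markers, among them albumin and transthyretin, which summed to CPM values (counts scaled to a common library total) between 93990 and 187800 in each library. The labels do not say that the libraries of a group came from separate animals, so p-values measure the spread between these libraries.

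Gadd45g was by far the most abundant member, it was lowest in REG, and the mean of hADMSCs-Exo lay between those of REG and LFG. On the FPKM scale, which divides counts by gene length and library total and so allows genes to be compared, Gadd45g was at 56.2, 132 and 70.7 in LFG 1, 2 and 3, with 1138, 2555 and 1148 counts. In REG it was at 14.9, 11.4 and 9.88 FPKM, with 292, 264 and 230 counts. In hADMSCs-Exo it was at 58.1, 33.2 and 53.1 FPKM, with 1122, 641 and 1058 counts. The group means were 86.4 ± 40.5 (SD, n = 3) FPKM in LFG, 48.1 ± 13.2 (SD, n = 3) in hADMSCs-Exo, and only 12.1 ± 2.59 (SD, n = 3) in REG. Every REG library lay below every library of the other groups, whereas LFG and hADMSCs-Exo overlapped. In bulk liver RNA, fewer cells of a type and less RNA per cell cannot be told apart.

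Gadd45b, the member best known from liver regeneration, was expressed at a much lower level. Its FPKM was 6.23, 5.58 and 3.23 in LFG, 3.55, 1.56 and 2.44 in REG, and 3.94, 2.18 and 2.48 in hADMSCs-Exo, from 49 to 171 counts per library. The group means were 5.02 ± 1.58 (SD, n = 3) in LFG, 2.52 ± 0.996 (SD, n = 3) in the REG libraries and 2.87 ± 0.941 (SD, n = 3) in those of hADMSCs-Exo. REG and hADMSCs-Exo overlapped, and LFG 3 lay inside the range of both on this scale. On the log2 CPM scale with TMM normalization, which corrects for library composition, the 3 LFG libraries lay between 2.69 and 3.05 and above the other 6, which ran from 1.49 to 2.64.

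Gadd45a, a p53 target and the member first found by growth arrest, was the scarcest and the most variable within groups. Its FPKM was 0.952, 0.379 and 2.83 in LFG, 1.70, 1.12 and 2.97 in REG, and 2.14, 0.517 and 0.668 in hADMSCs-Exo. These values rest on 11 to 104 counts, so counting error adds to the spread between libraries. The group means were 1.39 ± 1.28 (SD, n = 3) in LFG and 1.11 ± 0.894 (SD, n = 3) in hADMSCs-Exo, beside 1.93 ± 0.947 (SD, n = 3) in REG, and all 3 groups overlapped. LFG 3 held the highest Gadd45a level of its group, and LFG 2 the lowest of all libraries.

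**Figure D1:**
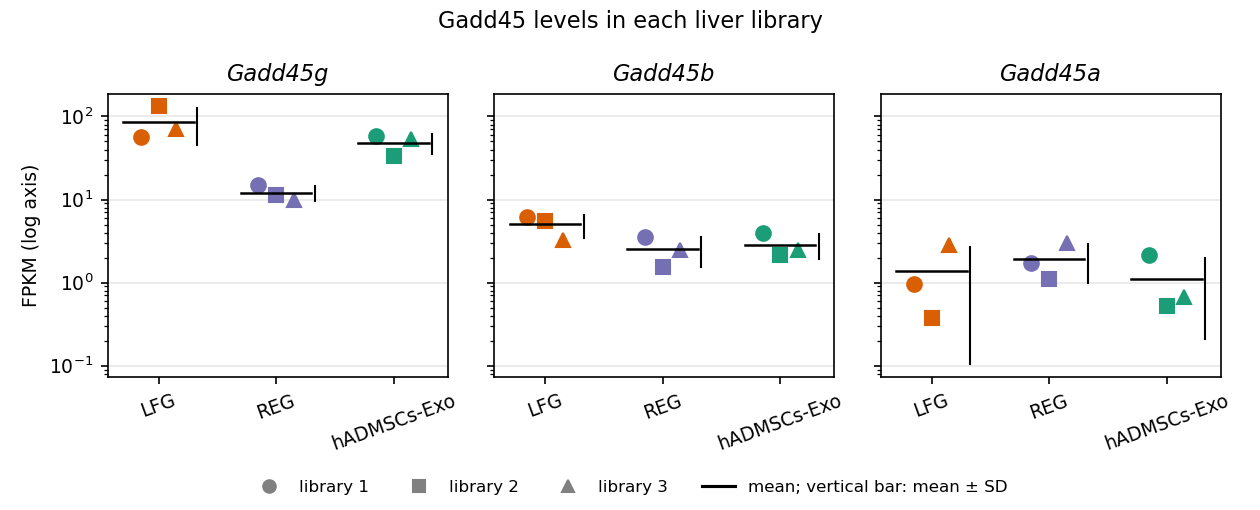
FPKM of Gadd45g, Gadd45b and Gadd45a on a log axis in the 9 liver libraries, with 1 symbol per library number, the group mean as a horizontal line and mean ± SD as a vertical bar. Gadd45g in REG sits between 9.88 and 14.9, below all other libraries, while Gadd45a overlaps in all groups.

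Gadd45g made up most of the family's transcripts in every library, and its share was smallest in REG. Of the summed FPKM of the 3 genes, it took 88.7%, 95.7% and 92.1% in LFG, 74.0%, 81.0% and 64.6% in REG, and 90.5%, 92.5% and 94.4% in hADMSCs-Exo. Gadd45b took 4.04% to 9.83% in LFG, 11.1% to 17.6% in REG and 4.41% to 6.14% in hADMSCs-Exo. Gadd45a took 0.274% to 3.68%, 7.95% to 19.4% and 1.19% to 3.33% in the same order. The shares of REG did not overlap with those of either other group for any of the 3 genes. Shares of a library add to a fixed total, so a lower Gadd45g share raises the others, and these are not 3 separate observations. In FPKM, Gadd45b and Gadd45a of REG overlapped with both other groups.

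**Figure D2:**
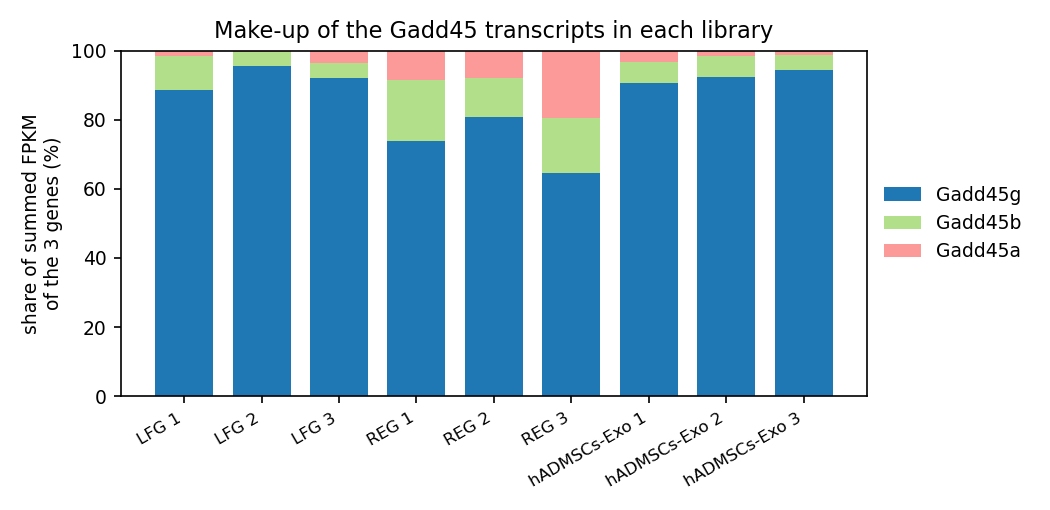
Stacked bars of the share of the summed FPKM of the 3 Gadd45 genes taken by each gene, in percent, 1 bar per library. Gadd45g fills 64.6% to 81.0% of the bar in REG and at least 88.7% in the other groups.

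The ratio of Gadd45g to Gadd45b within a library, which does not depend on the library total, was also lowest in REG. It ran from 9.02 to 23.7 in LFG, from 4.05 to 7.30 in REG and from 14.8 to 21.4 in hADMSCs-Exo. The mean log2 ratio was 4.06 ± 0.774 (SD, n = 3) in LFG and 2.32 ± 0.476 (SD, n = 3) in REG, a difference of -1.75 with a two-sided exact permutation p of 0.1, the smallest that 3 libraries against 3 can give. Between hADMSCs-Exo, at 4.08 ± 0.297 (SD, n = 3), and LFG the difference was 0.01 (exact permutation p = 1). The ratio of Gadd45g to Gadd45a was 25.0 to 349 in LFG, 3.33 to 10.2 in REG and 27.2 to 79.6 in hADMSCs-Exo. For that ratio REG differed from LFG by -3.59 on the log2 scale (exact permutation p = 0.1), and hADMSCs-Exo from LFG by -0.63 (exact permutation p = 0.9). These 4 ratio tests were not adjusted, and none can reach 0.05. They reuse libraries of the contrast that chose Gadd45g, in which it was low in REG. A low ratio in REG was thus partly built in by that choice, and the REG ratios are a description.

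Comparing hADMSCs-Exo with REG addresses what exosomes add to recovery with saline alone, and its values for the members are a description. Gadd45g stood at 1.94 on the scale of log2 fold change, with a standard error (SE) of 0.25, or 3.83-fold higher in hADMSCs-Exo, and its libraries did not overlap between the groups, as was so in this direction for 8.07% of the 12337 genes fitted. It ranked 25 of 12337 by fold change from the top, and the value stayed, when single libraries were left out, between 1.81 and 2.16. Gadd45b had a log2 fold change of 0.13 (SE 0.35), which turned to -0.13 without hADMSCs-Exo 1 and -0.12 without REG 2 and was 0.44 without REG 1. Gadd45a had a log2 fold change of -0.88 (SE 0.57), with overlapping libraries, and ran from -1.73 without hADMSCs-Exo 1 to -0.42 without REG 3. Across all genes edgeR's quasi-likelihood test called 1 gene in this comparison, 0.00811% of those fitted, with an adjusted p under 0.05 and a fold change of 1 or more on the log2 scale in either direction, and that gene was Cyp2c55, a cytochrome P450.

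Comparing REG with LFG addresses what the weeks after CCl4 do without exosomes, and it shares the REG libraries with the contrast that chose the family. Gadd45g was 6.50-fold lower in REG than in LFG, with a log2 fold change of -2.70 (SE 0.42, 95% confidence interval -3.69 to -1.71). Its adjusted p was 0.243 in edgeR's quasi-likelihood test, which called 0% of the 12517 genes tested, and its unadjusted p of 0.000364 was the 15th smallest. Without LFG 3 the gene passed in the same test, at a log2 fold change of -2.63 (adjusted p = 0.0154), and with all libraries it passed in DESeq2 at -2.69 (adjusted p = 7.04e-07) and in limma with voom and quality weights at -2.94 (adjusted p = 0.0093). Without LFG 3, 6.94% of all genes tested were called as lower in REG and 3.81% as higher, and DESeq2 and limma with voom called 1.92% and 10.3% of genes in either direction. The groups did not overlap in log2 CPM (exact permutation p = 0.1), as was so for 10.0% of genes lower in REG.

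Gadd45b and Gadd45a had smaller fold changes. Gadd45b had a log2 fold change of -0.77 in REG against LFG (SE 0.35, 95% confidence interval -1.61 to 0.07, adjusted p = 0.469 from edgeR), with no overlap of the libraries in log2 CPM, and passed only in limma with voom, at -1.15 (adjusted p = 0.0311). Gadd45a had a log2 fold change of 0.46 (95% confidence interval -1.58 to 2.51, adjusted p = 0.859 from edgeR). Its value moved with single libraries and with the tool: it was 1.98 without LFG 3 (adjusted p = 0.0471 from edgeR, past the threshold), -0.02 without LFG 2, 0.11 without LFG 1 and 0.04 without REG 3, and with all libraries it was 1.86 in limma with voom (adjusted p = 0.0583). Differences between the members' fold changes were tested only as the ratios above.

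Comparing hADMSCs-Exo with LFG sets the treated livers against the start of recovery, and it shares the hADMSCs-Exo libraries with the choosing contrast. Gadd45g had a log2 fold change of -0.78 (95% confidence interval -1.77 to 0.22, adjusted p = 0.814 from edgeR), and the libraries overlapped. Leaving out LFG 1 gave the lowest value, -1.10, leaving out LFG 2 the highest, -0.395, and leaving out LFG 3 gave -0.72 (adjusted p = 0.319 from edgeR). Gadd45b had a value of -0.67 (95% confidence interval -1.42 to 0.09, adjusted p = 0.805 from edgeR), and its libraries did not overlap in log2 CPM, as was so for 5.93% of the 12489 genes in this direction and 6.35% in the other. It ran from -0.90 without hADMSCs-Exo 1 to -0.49 without hADMSCs-Exo 2, and was -0.73 without LFG 3 (adjusted p = 0.167 from edgeR). Gadd45a had a value of -0.42 (95% confidence interval -2.67 to 1.82, adjusted p = 0.961 from edgeR), which turned to 1.07 without LFG 3. edgeR called 0% of genes here, where 747 had an unadjusted p under 0.05, DESeq2 called 60 and limma with voom called 1. For REG against LFG those counts were 1417 with an unadjusted p under 0.05, 240 by DESeq2 and 1285 by limma with voom.

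**Figure D3:**
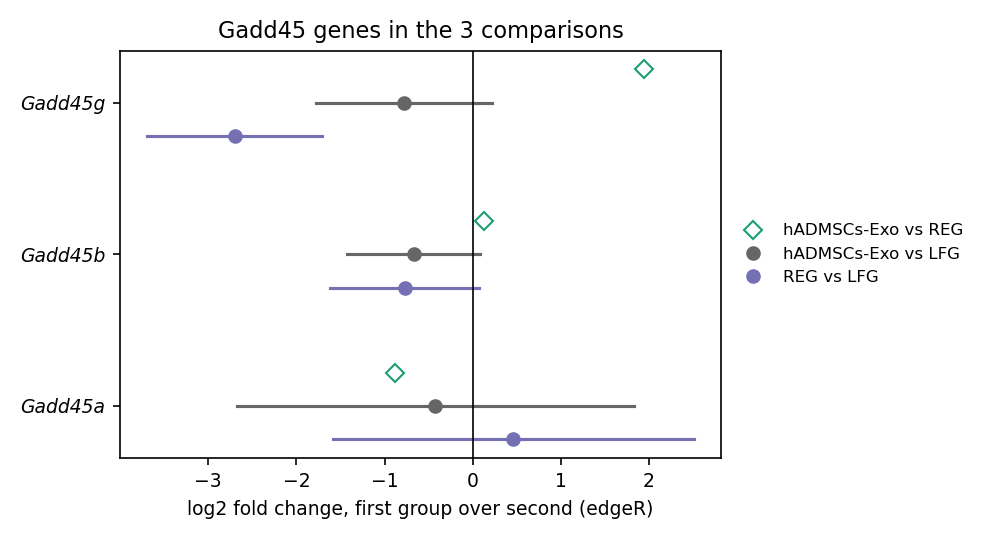
Log2 fold changes of the 3 Gadd45 genes from edgeR, first group over second. Open diamonds show hADMSCs-Exo against REG, the contrast that chose Gadd45g, without an interval, and filled circles show the comparisons with LFG with lines for their 95% confidence intervals. Gadd45g stands at 1.94 against REG, and for REG against LFG at -2.70 with an interval that does not reach 0.

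The genes around the family were read from lists of partners, regulators and pathways in which 0 genes passed the adjusted threshold in edgeR. For hADMSCs-Exo against REG, 37 of 211 list genes had an unadjusted p under 0.05, and DESeq2 called 4 and limma with voom 0. The numbers were 38 of 217, 2 and 0 for hADMSCs-Exo against LFG, and 61 of 214, 22 and 64 for REG against LFG. Over all genes DESeq2 and voom called 0.543% and 0.0243% for hADMSCs-Exo against REG, and 0.480% and 0.00801% for hADMSCs-Exo against LFG. For REG against LFG they called 1.92% and 10.3% of all genes. Without LFG 3, edgeR called 4 list genes as higher and 35 as lower of 222 in hADMSCs-Exo than in LFG, beside 1.47% and 4.50% of all genes. In REG it called 10 as higher and 57 as lower of 219, beside 3.81% and 6.94% of all genes. Counts below use an unadjusted p under 0.05, which 5.34% of all genes met as higher and 4.69% as lower in hADMSCs-Exo against REG, 2.30% and 3.68% in hADMSCs-Exo against LFG, and 4.62% and 6.70% in REG against LFG. Without LFG 3 these shares of all genes were 12.8% and 15.7% in hADMSCs-Exo against LFG and 18.2% and 19.1% in REG against LFG, and counts without LFG 3 are to be read against them.

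The first list holds 13 genes for proteins that bind Gadd45 proteins. Cdkn1a, which encodes the cell cycle inhibitor p21, had log2 CPM values of 5.20, 5.39 and 0.86 in LFG, 2.02, 0.46 and 0.86 in REG, and 1.68, 3.37 and 2.75 in hADMSCs-Exo. It was high in LFG 1 and LFG 2 alone, and LFG 3 had 19 counts against 869 and 746. Its log2 fold change was 1.53 (SE 0.54, unadjusted p = 0.0222, adjusted p = 0.431 from edgeR) in hADMSCs-Exo against REG and -3.52 (SE 1.07, adjusted p = 0.371 from edgeR) in REG against LFG, with overlapping libraries in both. It was the only one of the 12 partners tested with an unadjusted p under 0.05 in hADMSCs-Exo against REG. Cdk1 and Ccnb1, which encode the kinase and cyclin of mitotic entry, were likewise high in LFG 1 and LFG 2, at log2 CPM of 4.82 and 3.37 for Cdk1 and 4.48 and 2.16 for Ccnb1, and low in LFG 3, at 0.71 for Cdk1 and with 0 counts for Ccnb1. Both had an unadjusted p under 0.05 as lower in REG than in LFG, as did Cdkn1a, 3 of the 13 tested there, while 0 were higher. Without LFG 3 these 3 genes passed the adjusted threshold in edgeR as lower in both comparisons with LFG. Their log2 fold changes were then -4.06, -2.58 and -4.56 for Cdkn1a, Cdk1 and Ccnb1 in REG, and -2.55, -3.28 and -4.10 in hADMSCs-Exo.

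The remaining partners had no unadjusted p under 0.05 in hADMSCs-Exo against REG. Pcna, the replication clamp, had log2 CPM of 4.95 to 6.22 in LFG, 5.02 to 5.17 in REG and 4.81 to 5.03 in hADMSCs-Exo. Map3k4 and Map2k7, kinases that Gadd45 proteins activate or inhibit, had log2 fold changes of -0.31 and 0.10 in hADMSCs-Exo against REG. Rxra and Nr1i3, which encode nuclear receptors of the hepatocyte, had values of -0.05 and 0.45, and Npm1, Taf12, Ing1 and Ercc5 had values of 0.07, 0.12, 0.04 and -0.08. Gadd45gip1, whose protein binds Gadd45 proteins, had only 1 to 16 counts per library and did not pass the filter in that comparison. The median log2 fold change of the partners was 0.06, beside 0.01 for all genes. In hADMSCs-Exo against LFG, 0 of the 13 partners were higher and 1 lower at an unadjusted p under 0.05, and without LFG 3 these counts were 1 and 4. Nr1i3 then passed the adjusted threshold as higher in hADMSCs-Exo, with a log2 fold change of 1.28 (SE 0.29, adjusted p = 0.0441 from edgeR). Pcna, at -0.98 (adjusted p = 0.0529 from edgeR), did not pass. In REG against LFG without LFG 3, 2 partners were higher and 4 lower at an unadjusted p under 0.05.

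Among 27 tested genes for transcription factors and cytokines known to act on the family, 5 were higher in hADMSCs-Exo than in REG at an unadjusted p under 0.05 and 0 were lower, a share above the 5.34% of all genes, though edgeR called 0 after adjustment. They were Cebpb, Ddit3, Foxo1, Foxo3 and Hnf4a, of which the last 3 were named after their values were seen. The lists were chosen with earlier results of these data known, so this share is a description. Cebpb, a factor of the acute phase and gluconeogenesis, had log2 CPM of 6.46, 6.94 and 7.30 in LFG, 6.09, 5.54 and 5.35 in REG, and 6.90, 6.30 and 6.65 in hADMSCs-Exo. REG was below both other groups in every library, with log2 fold changes of 0.93 (SE 0.23, adjusted p = 0.38 from edgeR) for hADMSCs-Exo against REG and -1.23 (SE 0.31, adjusted p = 0.309) for REG against LFG. Ddit3, the stress factor CHOP, had values of 2.59, 2.76 and 3.84 in LFG, 1.70, 1.84 and 1.72 in REG, and 3.13, 2.16 and 2.61 in hADMSCs-Exo. Its REG libraries also lay below all others, with log2 fold changes of 0.95 (SE 0.29, adjusted p = 0.407 from edgeR) and -1.44 (SE 0.41, adjusted p = 0.338). In REG against LFG, 4 of 26 regulators were lower and 0 higher at an unadjusted p under 0.05, and the median was -0.21, beside -0.07 for all genes. Without LFG 3 those counts were 7 and 1 of 28, where 19.1% and 18.2% of all genes were lower and higher, and 3 regulators passed the adjusted threshold in edgeR. In hADMSCs-Exo against LFG, 0 of 28 were lower and 1 higher. Without LFG 3 these counts were 4 and 3 of 29, beside 15.7% and 12.8% of all genes, with 0 called by edgeR.

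Targets of p53, the list that includes Cdkn1a, lay lowest in REG as a sum. Their 30 genes added to 922 to 1385 CPM in LFG, 584 to 632 in REG and 650 to 762 in hADMSCs-Exo, with no overlap between groups. The sum is weighted to abundant genes, and gene by gene the median log2 fold change was 0.06 in hADMSCs-Exo against REG, beside 0.01 for all genes, with 16 values above 0 and 14 below. It was -0.81 in REG against LFG and -0.51 in hADMSCs-Exo against LFG, beside -0.07 and -0.06 for all genes. At an unadjusted p under 0.05, 12 were lower and 1 higher in REG than in LFG (7 and 0 lower and higher in hADMSCs-Exo than in LFG, and 13 and 2 without LFG 3, where 6 passed the adjusted threshold as lower in edgeR), and 7 were higher and 1 lower in hADMSCs-Exo than in REG. Trp53inp1, which promotes stress-induced arrest and autophagy, had log2 CPM of 7.19, 8.61 and 7.68 in LFG, 4.85, 5.33 and 5.12 in REG, and 5.43, 7.07 and 6.29 in hADMSCs-Exo. The 3 groups did not overlap, with log2 fold changes of 1.299 (SE 0.36, adjusted p = 0.407 from edgeR) in hADMSCs-Exo against REG and -2.83 (SE 0.40, adjusted p = 0.243) in REG against LFG. Igfbp3, an insulin-like growth factor carrier, was the gene lower in hADMSCs-Exo than in REG, with a log2 fold change of -1.06 (SE 0.33, adjusted p = 0.407 from edgeR). Without LFG 3, 12 of the 30 passed the adjusted threshold as lower in REG and 1 as higher, beside 6.94% and 3.81% of all genes.

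Other stress genes and immediate early genes follow. Ddit4, an inhibitor of mTOR signaling induced by stress and glucocorticoids, had log2 CPM of 4.97, 7.35 and 4.18 in LFG, 3.26, 2.70 and 3.02 in REG, and 2.98, 4.56 and 5.39 in hADMSCs-Exo. Its log2 fold change was 1.61 (SE 0.52, adjusted p = 0.41 from edgeR) in hADMSCs-Exo against REG, with hADMSCs-Exo 1 inside the REG range. Trib3, a pseudokinase of the same stress response, went the other way at -1.05 (SE 0.32, adjusted p = 0.407 from edgeR). Of 16 stress genes, 4 were higher and 1 lower in hADMSCs-Exo than in REG at an unadjusted p under 0.05, and 5 were lower and 0 higher in REG than in LFG. Without LFG 3 the latter counts were 8 and 2, with 3 and 1 past the adjusted threshold in edgeR, and in hADMSCs-Exo against LFG they were 4 of 17 lower, from 0 of 16 with LFG 3, with 0 called. Of the immediate early genes, 3 of 24 were higher and 1 lower in hADMSCs-Exo than in REG, and 8 of 25 were lower and 0 higher in REG than in LFG. Without LFG 3, 10 were lower and 1 higher in REG, and 4 passed the adjusted threshold as lower in edgeR. In hADMSCs-Exo against LFG, 5 of 25 were lower and 0 higher, and without LFG 3 these were 8 and 1 of 26, with 1 gene past the adjusted threshold in each direction. Btg2 and Fosl2 had values of 0.80 and 0.74 in hADMSCs-Exo against REG with libraries apart, and Junb, an AP-1 subunit, had -0.76, also apart. The shares of all genes with libraries apart were 8.07% higher and 7.47% lower there, and 8.91% of genes were higher with libraries apart in REG against LFG.

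Of 23 tested genes of the fasting and glucocorticoid response of the liver, 13 were lower and 2 higher in REG than in LFG at an unadjusted p under 0.05, beside 6.70% and 4.62% of all genes, with a median log2 fold change of -1.18 beside -0.07 for all genes, and without LFG 3 the counts were 13 and 3, with 7 and 1 past the adjusted threshold in edgeR. In hADMSCs-Exo against REG, 3 were higher and 0 lower, with a median of 0.45. For the comparison of hADMSCs-Exo with LFG, 2 were higher and 2 lower, with a median of -0.49, and without LFG 3 these counts were 2 and 6, with 2 past the adjusted threshold as lower in edgeR and a median of -0.24. Tsc22d3, a glucocorticoid-induced gene, had log2 CPM of 7.35, 8.08 and 8.80 in LFG, 6.40, 6.36 and 6.66 in REG, and 6.12, 7.79 and 8.09 in hADMSCs-Exo. The first hADMSCs-Exo library lay below all REG libraries and the others above them, and the log2 fold change was 1.07 (SE 0.42, adjusted p = 0.466 from edgeR). Pdk4, which spares glucose in fasting, was at 2.07, 2.37 and 1.71 in hADMSCs-Exo and 0.97, 1.37 and 1.26 in REG, with a log2 fold change of 0.89 (SE 0.28, adjusted p = 0.409 from edgeR), and at 4.52, 5.07 and 0.25 in LFG.

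Genes of lipogenesis, which the liver uses after feeding, were read beside them. At an unadjusted p under 0.05, 8 of 16 were lower and 0 higher in hADMSCs-Exo than in REG, with a median log2 fold change of -0.74. In REG against LFG 1 was higher and 0 lower, with a median of 0.69, and against LFG hADMSCs-Exo had 0 higher and 1 lower, with a median of -0.13. Without LFG 3 these counts were 1 and 0 in REG, with 1 past the adjusted threshold as higher in edgeR, and 1 and 2 in hADMSCs-Exo, with 0 called. Scd1, which makes monounsaturated fatty acids, had log2 CPM of 11.9, 12.2 and 10.3 in LFG, 11.9, 13.0 and 13.4 in REG, and 12.0, 12.0 and 10.5 in hADMSCs-Exo, with a log2 fold change of -1.29 (SE 0.47, adjusted p = 0.448 from edgeR). Feeding state at sacrifice was not given in the sources used here, and its part in the levels of Gadd45g was not tested.

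Genes of the kinase cascade that Gadd45 proteins start, and of DNA demethylation, were read in the same way. Of 20 tested genes of p38 and JNK signaling, 1 was higher in hADMSCs-Exo than in REG at an unadjusted p under 0.05 and 0 were lower, beside 5.34% and 4.69% of all genes. The former was Dusp8, a phosphatase that turns off JNK and p38, with 38, 27 and 16 counts in hADMSCs-Exo against 3, 3 and 13 in REG and 65, 153 and 7 in LFG. Its log2 fold change was 2.19 (SE 0.61, adjusted p = 0.407 from edgeR), and the libraries did not overlap in log2 CPM. Of 21 tested genes of DNA demethylation and base excision repair, 0 had an unadjusted p under 0.05 in hADMSCs-Exo against REG, where edgeR called 0.

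Against LFG, these counts depended on LFG 3. Of the p38 and JNK genes, 4 of 20 were lower and 0 higher in REG than in LFG, beside 6.70% and 4.62% of all genes. Without LFG 3, 5 of 21 were lower and 3 higher, and 1 in each direction passed the adjusted threshold in edgeR. In hADMSCs-Exo against LFG, 0 of 21 were lower or higher, and without LFG 3 these counts were 3 and 1, with 0 called by edgeR. Of the genes of demethylation and repair, 2 of 21 were lower and 0 higher in REG than in LFG. Without LFG 3, 7 of 22 were lower and 2 higher, of which 3 and 1 passed the adjusted threshold in edgeR, beside 19.1% and 18.2% of all genes at that unadjusted p and 6.94% and 3.81% past the adjusted threshold. In hADMSCs-Exo against LFG, 2 of 21 were lower and 1 higher, and without LFG 3 these were 6 and 2 of 22, of which 4 and 1 passed.

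**Figure D4:**
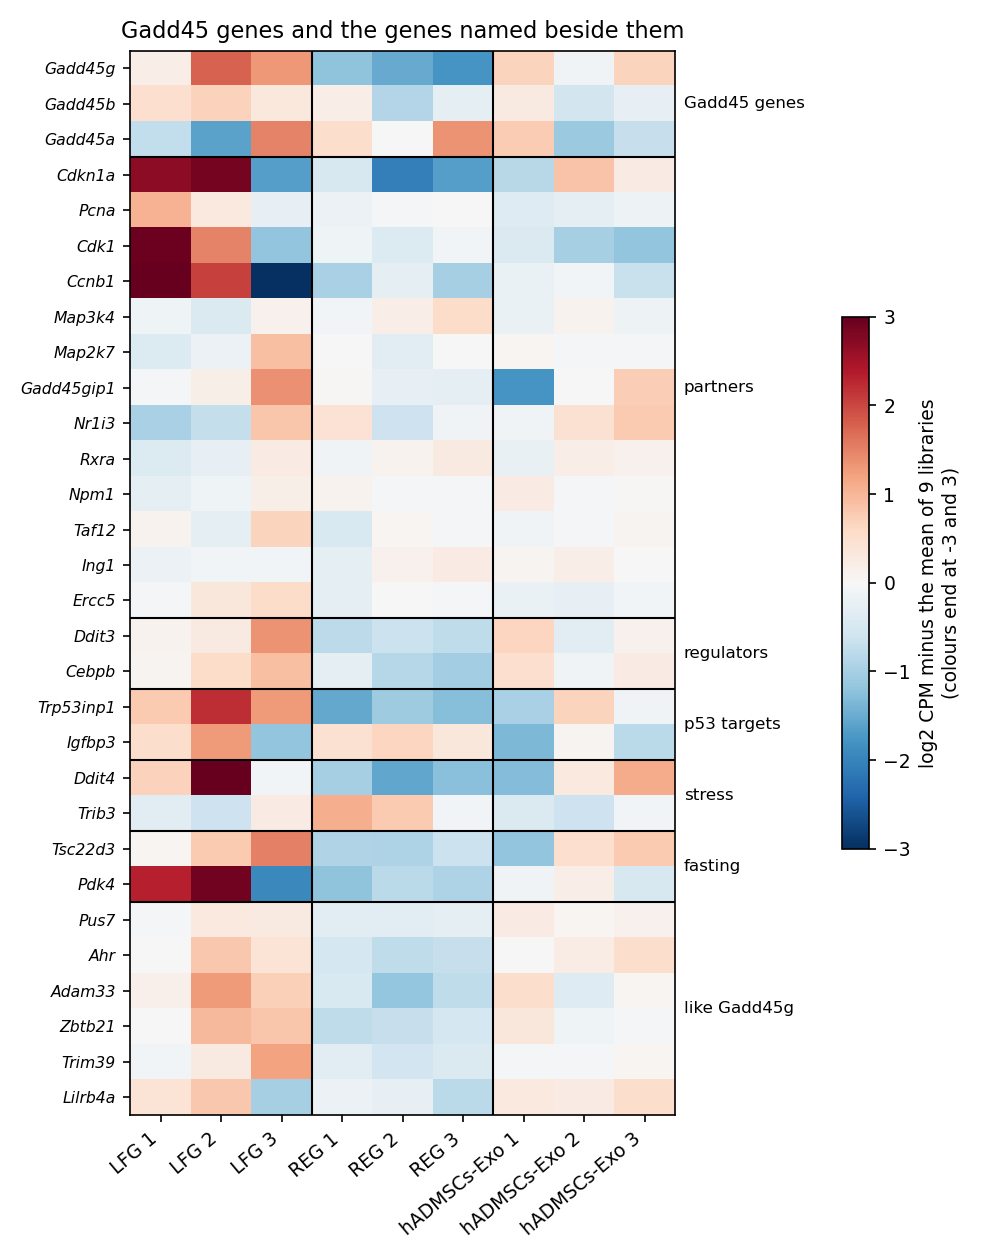
Log2 CPM minus the mean of the 9 libraries for the Gadd45 genes, their partners and the genes named from the lists of regulators, p53 targets, stress, fasting and likeness to Gadd45g, with colours that end at -3 and 3. Gadd45g, Ddit3, Cebpb and Ahr are blue in all REG libraries, while Cdkn1a, Cdk1 and Ccnb1 are red in LFG 1 and LFG 2 and blue in LFG 3.

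Gadd45g and Gadd45b were positively correlated over the libraries, and neither was positively correlated with Gadd45a. In log2 CPM over 9 libraries, Gadd45g and Gadd45b had a Pearson r of 0.656 (Spearman rho 0.733), Gadd45g and Gadd45a an r of -0.351 (rho -0.25), and Gadd45b and Gadd45a an r of -0.066 (rho -0.133). The points fall into 3 groups that differ in Gadd45g, so these values describe group differences as much as spread within groups.

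The genes with the pattern most like Gadd45g, of 12759 ranked by Pearson r over the 9 libraries, were Pus7 (0.954), Cebpb (0.947), Ahr (0.947), Adam33 (0.945) and Zbtb21 (0.943). Over the 8 libraries without LFG 3 they were Trim39 (0.965), Cebpb (0.948), Ahr (0.948), Pus7 (0.946) and Lilrb4a (0.946). Ahr, the receptor for dioxins and tryptophan metabolites, had log2 CPM of 5.72, 6.56 and 6.15 in LFG, 5.21, 4.99 and 5.04 in REG, and 5.76, 5.97 and 6.28 in hADMSCs-Exo. Its REG libraries were below all others, as were those of Pus7, Adam33, Zbtb21 and Trim39. This order follows from the choice by likeness to Gadd45g and is a description.

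The genes most like Gadd45b were others, led by Slc17a9 (0.94), Ten1 (0.936) and Med19 (0.928), and without LFG 3 by Med19 (0.96), Miox (0.948) and Ten1 (0.944). Slc17a9, a vesicular nucleotide transporter, had log2 CPM of 3.77 to 4.62 in LFG, 2.12 to 3.04 in REG and 2.44 to 3.95 in hADMSCs-Exo. Those most like Gadd45a were Far2 (0.956), Ccdc51 (0.955) and Cenpv (0.951), and without LFG 3 Nfx1 (0.994), Dnaaf2 (0.948) and Rnf152 (0.946). With 9 points and this many genes, high values are found for any gene, and they are descriptions with no test.

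Summed cell type markers are given beside the Gadd45 levels. The 11 hepatocyte markers summed to 178300 to 187800 CPM in REG, above LFG (93990 to 162100) and hADMSCs-Exo (135100 to 148400). The sum is weighted to abundant genes. In hADMSCs-Exo against REG, 1 of the 11 was higher and 0 lower at an unadjusted p under 0.05. There 5 values lay above 0 and 6 below, with a median log2 fold change of -0.15 beside 0.01 for all genes. At an unadjusted p under 0.05, 1 of the 11 was higher and 1 lower in REG than in LFG, and 0 in either direction in hADMSCs-Exo than in LFG. Without LFG 3, 4 were higher and 1 lower in REG and 2 higher and 0 lower in hADMSCs-Exo, and 1 in each comparison passed the adjusted threshold as higher in edgeR. The 12 stellate cell and myofibroblast markers summed to 227 to 384 CPM in REG, 89.5 to 248 in hADMSCs-Exo and 72.2 to 1477 in LFG, and 6 of 11 tested were lower in hADMSCs-Exo than in REG at an unadjusted p under 0.05. Acta2, the smooth muscle actin of activated stellate cells, had 6, 21 and 33 counts in hADMSCs-Exo and 119, 202 and 76 in REG. The 12 macrophage markers summed to 962 to 1196 CPM in hADMSCs-Exo, 514 to 1498 in REG and 156 to 1904 in LFG, where LFG 3 was the lowest. The 10 neutrophil markers summed to 42.2 to 65.1 CPM in hADMSCs-Exo, 13.0 to 70.4 in REG and 11.2 to 35.3 in LFG, and 6 of 9 tested were higher in hADMSCs-Exo than in LFG at an unadjusted p under 0.05, with and without LFG 3, and 2 passed the adjusted threshold in edgeR without it. The 11 lymphocyte markers summed to 5.28 to 24.1 CPM in LFG, 16.2 to 34.1 in REG and 31.2 to 35.5 in hADMSCs-Exo, where all libraries lay above those of LFG. Endothelial sums (10 genes, 96.2 to 410 CPM over all libraries) and cholangiocyte sums (8 genes, 50.3 to 196 CPM) overlapped in all groups. In hADMSCs-Exo against REG at an unadjusted p under 0.05, 0 of 10 endothelial markers were higher and 1 lower. Their median log2 fold change was -0.675, beside 0.01 for all genes. The counts were 0 and 2 of 6 for cholangiocyte markers (median -0.421) and 0 and 0 of 12 for macrophage markers (0.132). They were 1 and 0 of 9 for neutrophil markers (0.68) and 1 and 0 of 10 for lymphocyte markers (0.459). Without LFG 3, stellate markers lower than in LFG at an unadjusted p under 0.05 went from 0 of 10 to 10 of 11 in REG and from 6 to 10 of 11 in hADMSCs-Exo, and 4 and 7 passed the adjusted threshold in edgeR. Macrophage markers went from 0 to 6 of 12 in REG and from 0 to 8 of 12 in hADMSCs-Exo, and 3 passed in each. Cholangiocyte markers went from 0 to 3 of 6 lower in REG and from 0 to 5 of 6 in hADMSCs-Exo, and 3 and 1 passed. No marker of these lists was at 0 in every library. The part of cell makeup in the Gadd45 levels was not tested.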

How the data were processed

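Liver RNA for 9 libraries, 3 per group, had been extracted with Trizol and sequenced from NEBNext Ultra libraries on a NovaSeq instrument. The submitters' processing notes name cutadapt 1.15, HISAT2 2.0.5, HTSeq 0.9.1, DESeq 1.30.0 and the build GRCm38, with no use of strand given in the sources used here. The authors deposited raw counts per gene and, beside them, FPKM, which recomputed from the counts with an error of 9.19e-07 or less. In the table, 31 names stand on several entries, which were kept apart by identifier.

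The test was the two-sided quasi-likelihood test of edgeR 4.0.16 (R 4.3.3) on the counts of the 6 libraries of each comparison, with TMM scaling, removal of low counts by filterByExpr and Benjamini-Hochberg adjustment over all genes tested. A gene was called with an adjusted p under 0.05 and a log2 fold change of 1 or more in either direction. Log2 CPM used a prior count of 2. The self-test on simulated data with known changes was run before the fits. Exact permutation tests were run on log2 values. FPKM was used for levels and ratios between genes. Alternatives were DESeq2 1.42.0, limma 3.58.1 with voom and quality weights, RLE size factors, other filters, a joint fit of all libraries, a block for the replicate number and each library left out. List counts without LFG 3 and by other tools were added after seeing the data. Upstream sequence and starts came from RefSeq (GRCm38.p6) and gene positions from the deposited table, the same as in GENCODE M21 for 21617 of 21936 genes, read with Python 3.11.15, pandas 2.3.3 and matplotlib 3.10.9.

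The members and lists were chosen with earlier results of these data known. Named are the members; from each list up to 2 genes per direction with the largest change in hADMSCs-Exo against REG among those with an unadjusted p under 0.05; all partners past the count filter; and for each member the 5 genes of highest Pearson r over 9 libraries and over 8 without LFG 3, of which not all are described. Lists were written from general knowledge, and some genes stand on several.

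Total counts ranged from 13837445 to 19840917 per library. Libraries of a group differed by more than sampling noise, the lowest chi-square per gene being 23.4, so none was counted as a repeat. Libraries are numbered 1 to 3 in each group. In the comparison of hADMSCs-Exo with LFG, same-numbered libraries deviated from their group means together (correlation across genes 0.101, 0.308 and 0.18), which is the only ground for treating them as pairs. Between REG and LFG the correlations were 0.415, -0.202 and 0.305, and between hADMSCs-Exo and REG they were 0.159, 0.00939 and 0.0336.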

Additional observations from a re-analysis of the deposited data

How the results depend on the processing

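The number of genes called depended on the test. In hADMSCs-Exo against REG it was 1 with edgeR, 67 with DESeq2, 3 with limma and voom, 4 with no filter on low counts, 0 with all 9 libraries in one fit, 266 with an unadjusted p and the fold change limit, and 0 to 1 with each library left out (0 without hADMSCs-Exo 3 or REG 2). In hADMSCs-Exo against LFG it was 0 with edgeR, 60 with DESeq2, 1 with voom, 1 with all libraries in one fit, 374 with an unadjusted p, and 0 to 773 with each library left out (773 without LFG 3). In REG against LFG it was 0 with edgeR, 240 with DESeq2, 1285 with voom, 537 with an unadjusted p, and 0 to 1391 with each library left out (1391 without LFG 3). Genes of the lists called over the 3 comparisons were 0 with edgeR, 136 with an unadjusted p, 28 with DESeq2 and 64 with voom.

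Gadd45g in REG against LFG kept its direction under all 13 alternatives, from -3.03 without LFG 1 to -2.33 without LFG 2, and passed the threshold with DESeq2 (-2.69), voom (-2.94) and without LFG 3 (-2.63). Gadd45b in the same comparison passed with voom (-1.15) and ran from -1.05 to -0.51 with libraries left out. Gadd45a in REG against LFG ran from -0.020 without LFG 2 to 1.98 without LFG 3, and was 1.86 with voom (adjusted p = 0.0583). Gadd45a in hADMSCs-Exo against LFG ran from -1.26 without hADMSCs-Exo 1 to 1.07 without LFG 3, and was 0.89 with voom. The cause of these changes was not tested.

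With the replicate block, log2 fold changes in hADMSCs-Exo against LFG, where the numbers were treated as pairs, were -0.68 for Gadd45g, -0.70 for Gadd45b and -0.01 for Gadd45a, and 0 genes were called. In REG against LFG the replicate block gave -2.60, -0.83 and 0.95 with 0 genes called, and in hADMSCs-Exo against REG 1.91, 0.15 and -1.001 with 1 gene called, which was Cyp2c55 as without the block. Gadd45a rests on as few as 11 counts, and with 3 libraries per group the precision of all values is set by the spread between libraries.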

Other observations

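Cell cycle genes had their highest summed levels in LFG 1 and LFG 2, and their relation to the Gadd45g level was not tested. The 28 genes, among them Mki67 and Top2a as markers of dividing cells, summed to 97.8 to 895 CPM in LFG, with LFG 3 the lowest, 124 to 155 in REG and 111 to 137 in hADMSCs-Exo. At an unadjusted p under 0.05, 0 of 25 were higher and 2 lower in hADMSCs-Exo than in REG. The median log2 fold change there was -0.09, beside 0.01 for all genes. Against LFG at that unadjusted p, 12 of 27 were lower in REG and 17 of 27 in hADMSCs-Exo, with 0 higher. After adjustment 0 passed in edgeR. Without LFG 3, 25 and 23 of 28 passed as lower in REG and in hADMSCs-Exo, beside 6.94% and 4.50% of all genes. Cdc20, an activator of the anaphase complex, had 652, 79 and 4 counts in LFG, and Mcm6, a subunit of the replicative helicase, had log2 CPM of 6.22, 4.72 and 1.70.

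Of 17 tested clock genes, 3 were higher and 2 lower in hADMSCs-Exo than in REG at an unadjusted p under 0.05, beside 5.34% and 4.69% of all genes, and edgeR called 0. Cry1, a repressor of the clock, had log2 CPM of 3.26, 4.68 and 4.12 in hADMSCs-Exo and 2.13, 2.34 and 2.92 in REG, with a log2 fold change of 1.65 (SE 0.37, adjusted p = 0.358 from edgeR), and Dbp, an output gene of the clock, had 6.998, 5.47 and 5.97 against 7.55, 7.43 and 7.11 (log2 fold change -1.09, SE 0.35, adjusted p = 0.41 from edgeR). Arntl, which drives the clock with Clock, had 18, 73 and 29 counts in hADMSCs-Exo, 6, 26 and 7 in REG, and 158, 111 and 0 in LFG. Against LFG the counts depended on LFG 3. In REG 1 clock gene was higher and 4 were lower than in LFG, with 0 called by edgeR, and without LFG 3 the counts were 8 and 5, with 3 and 4 called, beside 18.2% and 19.1% of all genes at that unadjusted p and 3.81% and 6.94% called. In hADMSCs-Exo 0 were higher or lower than in LFG, with 0 called, and without LFG 3 the counts were 6 and 2, with 1 called as higher, beside 12.8% and 15.7% of all genes and 1.47% called as higher. The time of day of sacrifice was not given in the sources used here.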
